A study of Mus musculus with 19 samples.

Results

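The genes that encode inhibitors of cyclin-dependent kinases (CDKs) were followed in mouse lung across increasing doses of a mixture of polycyclic aromatic hydrocarbons (PAHs). Members were all array probes whose RefSeq accession maps to Cdkn1a, Cdkn1b, Cdkn1c, Cdkn2a, Cdkn2b, Cdkn2c, Cdkn2d or Cdkn3, and each probe was kept apart. This gave 11 probes of 8 genes, among 55681 probes and 20660 named genes. All 11 were well above background in the lung channel in at least 17 of 18 mice and entered the test. Male MutaMouse animals, aged about 12 weeks, received olive oil alone (D0, n = 5) or 8 PAHs in olive oil at 15 (D1, n = 4), 30 (D2, n = 5) or 60 (D3, n = 4) mg BaP equivalents/kg-bw/day, where BaP is benzo[a]pyrene. MutaMouse is a transgenic strain on a BALB/C-DBA/2 background that carries a bacterial reporter gene for mutation assays, and all groups share it. Gavage was daily for 28 days, and lung was taken 72 hours after the last dose. Each value is a log2 ratio of lung RNA over a reference RNA pooled from 11 mouse cell lines, so a value below 0 means less signal than in those lines.

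CDKs drive the cell cycle when bound to cyclins, and their inhibitors hold cells in place. The CIP/KIP inhibitors (Cdkn1a, Cdkn1b, Cdkn1c) bind complexes of cyclins E and A with CDK2 and also those of D-type cyclins, while the INK4 inhibitors (Cdkn2a to Cdkn2d) bind CDK4 and CDK6 and keep D-type cyclins off them. Cdkn1a is a classical target of the transcription factor p53, which responds to DNA damage, and metabolites of PAHs form DNA adducts in lung. Cdkn3 is a phosphatase that acts on CDK2 and CDK1, and its transcript is abundant in dividing cells.

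The starts of Cdkn1a and Cdkn3, whose probes passed the test, are shown because these genes carry the calls described here. RefSeq (GRCm38.p6) lists 2 starts of Cdkn1a, and the 250 bases before each are chr17:29090729-29090978 and chr17:29093519-29093768 (plus strand). The bases before the Cdkn3 start are chr14:46760291-46760540 (plus strand). Capitals mark matches on either strand to a pair of adjoining p53 half-sites (1 mismatch allowed over 20 bases), GCGTG (the core bound by the aryl hydrocarbon receptor), CCAAT or GGGCGG (a GC box).

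Cdkn1a first start: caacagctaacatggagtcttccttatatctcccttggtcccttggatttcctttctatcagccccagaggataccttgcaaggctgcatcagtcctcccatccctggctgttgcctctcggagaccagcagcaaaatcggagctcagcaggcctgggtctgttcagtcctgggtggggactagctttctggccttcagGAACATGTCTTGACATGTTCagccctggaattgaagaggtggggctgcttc

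Cdkn1a second start: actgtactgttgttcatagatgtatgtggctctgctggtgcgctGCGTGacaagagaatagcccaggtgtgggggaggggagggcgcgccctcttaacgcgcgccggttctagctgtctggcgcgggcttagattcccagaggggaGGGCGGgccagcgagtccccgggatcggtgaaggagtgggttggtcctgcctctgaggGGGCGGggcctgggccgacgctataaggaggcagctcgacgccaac

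Cdkn3 start: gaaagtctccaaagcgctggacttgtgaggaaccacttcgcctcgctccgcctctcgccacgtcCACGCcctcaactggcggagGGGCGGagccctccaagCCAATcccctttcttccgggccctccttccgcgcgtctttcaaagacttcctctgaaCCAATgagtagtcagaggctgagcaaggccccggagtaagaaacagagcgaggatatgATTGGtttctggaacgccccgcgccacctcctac

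The first Cdkn1a window held a pair of p53 half-sites, from 51 to 32 bases before the start. Such a pair stood in 25 of 32851 windows of this length (0.0761%), and in no other window of these genes. The second Cdkn1a window held 1 GCGTG and 2 GGGCGG matches and no half-site. Cdkn3 held 3 CCAAT matches, with 1 GCGTG and 1 GGGCGG. Over all windows, 28.2% held GCGTG, 33.8% CCAAT and 32.7% GGGCGG. The table has windows for 7 of the 8 genes, and a match describes letters, not binding. The probes' own positions are not given in the sources used here, so no probe can be tied to one start.

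Cdkn1a rose at every dose, and it was the member with calls at every dose. On the probe for NM_007669 (A_51_P363947), which has 10 spots per array, the D0 mice lay at -1.05, -0.66, -0.97, -0.93 and -0.56. The D1 mice lay at 0.72, 1.04, 1.5 and 1.20. The D2 mice lay at 1.15, 1.41, 1.36, 0.95 and 0.75, and the D3 mice at 2.17, 2.26, 2.25 and 2.46. Every treated mouse was above every D0 mouse, D1 and D2 overlapped, and every D3 mouse was above every other mouse. Within an array the 8 to 10 usable spots of this probe had an SD of 0.03 to 0.07, below the SD between mice of a group (0.12 to 0.33).

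**Figure D1:**
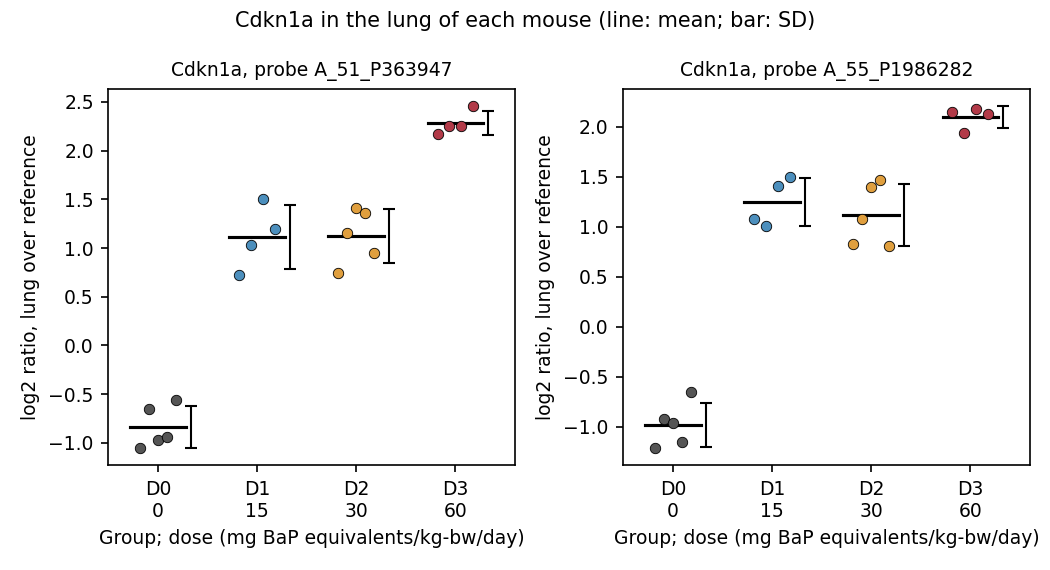
Log2 ratio of lung over reference RNA for both Cdkn1a probes; each point is 1 mouse, lines are group means and bars SDs (D0 n = 5, D1 n = 4, D2 n = 5, D3 n = 4). On the left probe D0 lies between -1.05 and -0.56, D1 and D2 between 0.72 and 1.5, and D3 between 2.17 and 2.46.

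Relative to D0, the change on this probe was 1.95 ± 0.15 at D1, 1.96 ± 0.14 at D2 and 3.12 ± 0.15 at D3 (log2, ± SE), or 3.86-, 3.88- and 8.68-fold. In limma with Benjamini-Hochberg adjustment over 30999 probes, adjusted p was 6.25e-07, 2.09e-07 and 1.49e-10. At D3 the probe ranked 4 by p among all probes tested. The fitted trend over dose was 2.86 ± 0.30 from D0 to 60 mg BaP equivalents/kg-bw/day (limma adjusted p = 9.02e-06). In tissue RNA, a change in the number of cells of a type and a change in RNA per cell cannot be told apart.

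The second probe of Cdkn1a, for transcript NM_001111099 (A_55_P1986282), has 1 spot per array and a dimmer signal. Its D0 values were -1.22, -0.92, -0.96, -1.15 and -0.66. The D1 values were 1.08, 1.01, 1.41 and 1.5. The D2 values were 1.08, 1.40, 1.47, 0.80 and 0.83, and the D3 values 2.15, 1.93, 2.17 and 2.13. As on the first probe, D0 lay below all treated mice, D1 and D2 overlapped, and D3 lay above all others. The changes from D0 were 2.23 ± 0.15, 2.10 ± 0.14 and 3.08 ± 0.15, or 4.69-, 4.28- and 8.45-fold, with limma adjusted p of 6.33e-08, 5.23e-08 and 1.29e-10. With the scanner software's background-corrected signals the same probe gave 3.37, 3.29 and 4.37. In D0 mouse 5 both channels of this spot were bright (391 in lung and 369 in reference, against 105 to 126 and 135 to 222 in the other D0 mice). The lung signal of those other D0 mice lay near the array medians (114 to 152 over all arrays). The size of the changes on this probe therefore depends on how background is handled.

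The 2 Cdkn1a probes were compared within each array, as the second minus the first. This difference was -0.15 ± 0.11 (SD, n = 5) in D0, 0.13 ± 0.23 (n = 4) in D1, -0.01 ± 0.11 (n = 5) in D2 and -0.19 ± 0.16 (n = 4) in D3. Against D0 it moved by 0.28, 0.14 and -0.04. The 2-sided exact permutation p was 0.0476, 0.0794 and 0.635 (adjusted over 3 doses 0.119, 0.119 and 0.635; the smallest p these groups allow is 0.00794). These values are without background subtraction, and the second probe's lung signal lay near the array medians in each D0 mouse but mouse 5. They cannot settle whether the probes changed alike. No difference between the probes passed the test after adjustment. With the background-corrected signals all 3 did, at 1.44, 1.34 and 1.27 (exact permutation, adjusted p = 0.0159 each), and without D0 mouse 3 those at D1 and D2 did, at 0.32 and 0.18 (exact permutation, adjusted p = 0.0475 each).

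Between doses, Cdkn1a was higher at D3 than at D1 or D2, while D1 and D2 could not be told apart by the test. The change from D1 to D2 was 0.01 (95% confidence interval -0.31 to 0.33) on the first probe and -0.13 (-0.44 to 0.17) on the second. From D2 to D3 it was 1.16 ± 0.15 and 0.98 ± 0.15 (limma adjusted p = 0.00239 and 0.00627). From D1 to D3 it was 1.17 ± 0.16 and 0.85 ± 0.15 (limma adjusted p = 0.00268 and 0.0249). With median centring in place of loess both probes lost the calls of D3 against D2 and D1, and no probe of the array was called in either; in D3 against D1 the second probe also lost its call without D1 mouse 21 or 22 or D3 mouse 31, 34 or 35. Within the 3 slides, D3 exceeded D0 by 2.97 to 3.33 on the first probe, and D2 minus D1 lay between -0.45 and 0.40. Each dose had its own array column on every slide, which leaves the effects of column and dose inseparable.

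Read over the whole group, calls came from few of the genes. A call required a change of 1.5-fold or more together with an adjusted p no higher than 0.05. At D1, 3 of 11 member probes were called (both of Cdkn1a and Cdkn3), against 1.06% of all probes tested. At D2 it was 2 of 11 against 0.626%, and at D3 2 of 11 against 2.43%, all of Cdkn1a. From D2 to D3 the count was 2 of 11 (0.106% of all probes), from D1 to D3 2 of 11 (0.145%), and for the trend 2 of 11 (1.53%), again Cdkn1a alone. Between D1 and D2 limma called 0 of 11 (0% of all probes), while 2 of 11 members and 3046 of 30999 probes had an unadjusted p under 0.05. No member was called lower in any comparison. The members' median change was 0.29, 0.15 and 0.15 at D1, D2 and D3, beside 0.0066, -0.0035 and -0.002 over all probes tested. The doses share the same D0 mice, so their values stand side by side and are not independent.

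**Figure D2:**
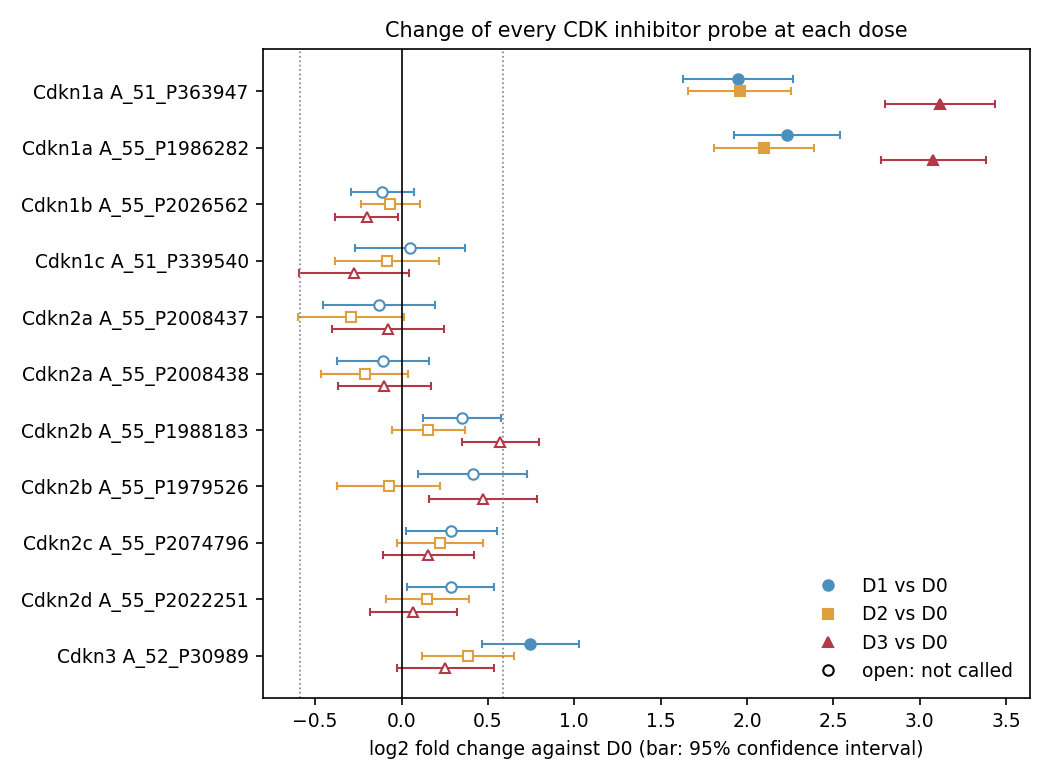
Log2 fold change of each of the 11 probes against D0 (bar: 95% confidence interval; circle D1, square D2, triangle D3; filled where called; dotted lines at 1.5-fold). The Cdkn1a probes lie between 1.95 and 3.12, and the other 9 probes between -0.29 and 0.75.

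The other CIP/KIP members had no call at any dose. Cdkn1b encodes p27, which restrains entry into the cycle in resting cells. Its level was 0.27 ± 0.06 (SD, n = 5) in D0, 0.16 ± 0.10 (n = 4) in D1, 0.21 ± 0.16 (n = 5) in D2 and 0.07 ± 0.15 (n = 4) in D3. The groups overlapped at each dose, with 3 of 4 D3 mice below all D0 mice. The changes were -0.11 ± 0.09, -0.06 ± 0.08 and -0.20 ± 0.09 (± SE, limma adjusted p = 0.523, 0.797 and 0.145), with a 95% confidence interval of -0.39 to -0.02 at D3.

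Cdkn1c encodes p57, an imprinted inhibitor needed in development. The Cdkn1c transcript was above the reference in every mouse, at 3.45 ± 0.28, 3.51 ± 0.23, 3.37 ± 0.27 and 3.18 ± 0.19 (SD, n = 5, 4, 5 and 4) from D0 to D3. It overlapped D0 at each dose. The change at D3 was -0.27 ± 0.15 (95% confidence interval -0.59 to 0.05; limma adjusted p = 0.27).

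Of the INK4 genes, Cdkn2b, which encodes p15 and is known as a target of TGF-beta signalling, was measured by 2 probes of NM_007670. On the brighter one the D0 mice lay at 1.06, 0.65, 0.82, 0.76 and 0.64, and the D1 mice at 1.30, 0.95, 1.21 and 1.09. The D2 mice lay at 0.65, 1.14, 1.03, 0.90 and 1.00, and the D3 mice at 1.23, 1.5, 1.33 and 1.38. Only D3 stood clear of D0. The changes were 0.35 ± 0.11, 0.16 ± 0.10 and 0.57 ± 0.11 (limma adjusted p = 0.0662, 0.517 and 0.00187). The value at D3 is 1.49-fold (95% confidence interval 1.27 to 1.73), below the fold limit, and it was called under 3 of 30 alternatives.

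On the dimmer Cdkn2b probe the D0 mice lay at 0.53, 0.45, 0.42, 0.05 and 0.40, and the D1 mice at 0.93, 0.69, 0.61 and 0.91. The D2 mice lay at -0.09, 0.80, -0.05, 0.29 and 0.53, and the D3 mice at 0.87, 1.01, 0.81 and 0.69. Here both D1 and D3 stood above all D0 mice, while D2 spread to both sides of them. The changes were 0.41 ± 0.15, -0.07 ± 0.14 and 0.47 ± 0.15 (limma adjusted p = 0.126, 0.875 and 0.0459), and at D3 the change was 1.39-fold, below the fold limit, so this probe was not called either. D2 was lower than D1 on both Cdkn2b probes, but neither difference passed the test: D2 minus D1 was -0.49 ± 0.15 on this probe (limma adjusted p = 0.311) and -0.19 ± 0.11 on the other (adjusted p = 0.575).

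**Figure D3:**
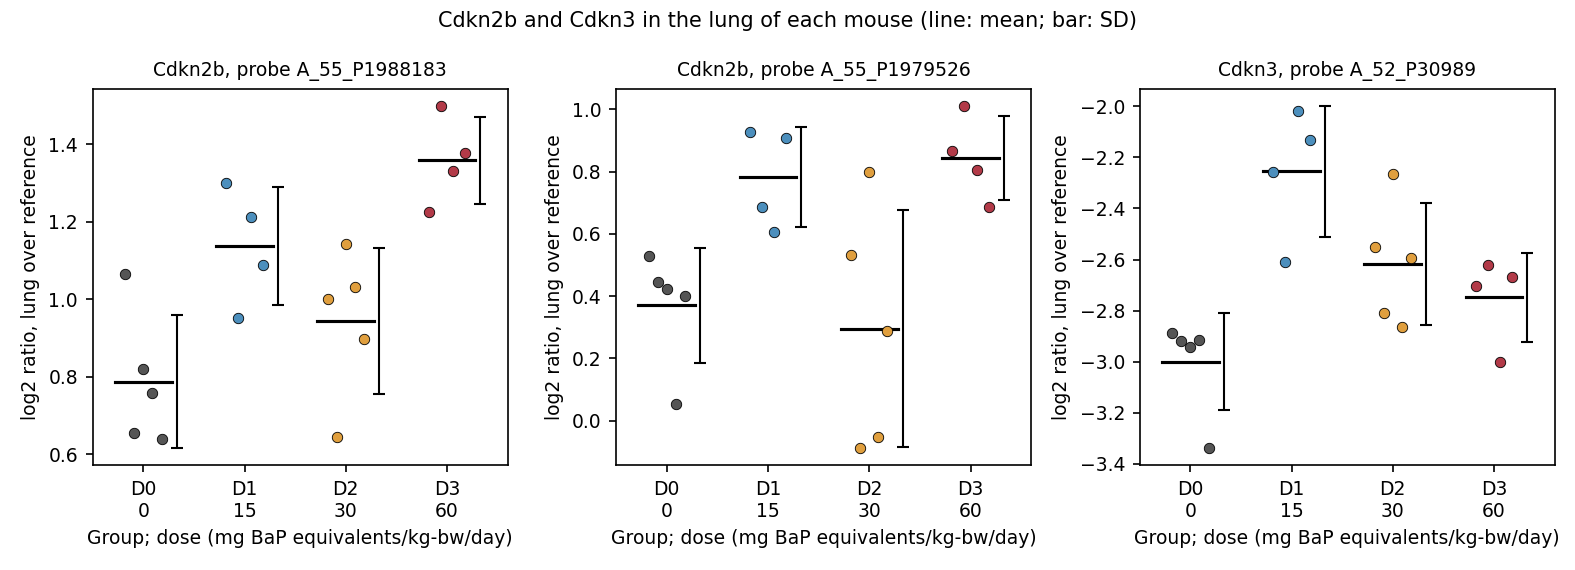
Log2 ratio of lung over reference RNA per mouse for both Cdkn2b probes and for Cdkn3; lines are group means and bars SDs (D0 n = 5, D1 n = 4, D2 n = 5, D3 n = 4). All D3 mice lie above all D0 mice on both Cdkn2b probes, and Cdkn3 is highest on average in D1 (mean -2.26).

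Cdkn2a encodes p16 and, from another reading frame, ARF, which guards p53. Both of its probes read far below the reference: the brighter one gave -4.50 ± 0.33, -4.63 ± 0.24, -4.79 ± 0.22 and -4.58 ± 0.19 from D0 to D3, and the other gave -2.19 ± 0.17, -2.30 ± 0.25, -2.41 ± 0.22 and -2.29 ± 0.18 (SD, n = 5, 4, 5 and 4). All treated groups overlapped D0. Changes ran from -0.29 to -0.08, with limma adjusted p between 0.367 and 0.795. The dimmer probe was not well above background in 1 D2 mouse. Its lung signal was 105 to 167 over all mice, beside array medians of 114 to 152, so its overlap with D0 cannot show a lack of change.

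Cdkn2c encodes p18, and Cdkn2d encodes p19; both act on CDK4 and CDK6. Cdkn2c lay at -0.97 ± 0.25, -0.68 ± 0.18, -0.74 ± 0.18 and -0.81 ± 0.16 (SD, n = 5, 4, 5 and 4), and its change at D1 was 0.29 ± 0.13 (95% confidence interval 0.03 to 0.55; limma adjusted p = 0.204). Cdkn2d lay at -1.19 ± 0.17, -0.90 ± 0.22, -1.04 ± 0.12 and -1.12 ± 0.24, and its change at D1 was 0.28 ± 0.12 (0.03 to 0.54; limma adjusted p = 0.193). For both, 1 to 2 D1 mice were above all D0 mice and the rest overlapped. At D3 the changes were 0.15 ± 0.13 and 0.07 ± 0.12.

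Cdkn3 was highest on average at the lowest dose. The D0 mice lay at -2.89, -2.92, -2.94, -2.92 and -3.34, and the D1 mice at -2.26, -2.61, -2.02 and -2.13. The D2 mice lay at -2.81, -2.27, -2.87, -2.59 and -2.55, and the D3 mice at -2.70, -2.62, -3.00 and -2.67. All D1 and D2 mice and 3 of 4 D3 mice were above every D0 mouse. D2 overlapped both D1 and D3, and every D1 mouse was above every D3 mouse. The changes were 0.75 ± 0.14, 0.38 ± 0.13 and 0.25 ± 0.14, and only that at D1 was called (1.68-fold, 95% confidence interval 1.38 to 2.04; limma adjusted p = 0.00372, 0.136 and 0.247).

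The difference of Cdkn3 between D3 and D1 did not pass the test, at -0.49 ± 0.14 (95% confidence interval -0.79 to -0.20; limma adjusted p = 0.274). Its call at D1 was lost with median centring (adjusted p = 0.236), and background-corrected signals raised the value to 1.45. Within the slides D1 exceeded D0 by 0.47, 0.91 and 1.21. The value of 0.91 rests on 1 D1 array, and that of 1.21 on 1 array of each group. The D0 array behind 1.21 is that of mouse 5, which had the lowest D0 value (-3.34). The lung signal of this probe was 118 to 145 in D0 and 148 to 351 in D1, beside array medians of 114 to 152 over all arrays.

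Genes that act with the inhibitors were read on 1 probe per gene, that with the brightest lung signal. Of the D-type cyclins with CDK4, the partners of the INK4 proteins, limma called 0 of 4 genes tested at D1 and at D2 (2 of 4 at an unadjusted p under 0.05 at each dose; 1 called at D2 without D0 mouse 2 or D2 mouse 30) and 1 of 4 at D3. That gene was Ccnd1, which encodes cyclin D1, at 1.05 ± 0.20 (SD, n = 5) in D0 and 2.01 in D3, a change of 0.96 ± 0.10 (1.95-fold, limma adjusted p = 8.19e-06). This call was lost with median centring. Cdk4 itself gave -0.16 at D1 and -0.14 at D3 and was not called.

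Of the cyclins E, A and B with CDK2, limma called 3 of 6 higher at D1, 1 at D2 and 0 at D3 (2 of 6 at an unadjusted p under 0.05). Ccna2, the S and G2 phase cyclin A2, rose by 1.24 ± 0.18 at D1 and 1.00 ± 0.17 at D2 (limma adjusted p = 0.00106 and 0.00351) and stood at 0.43 ± 0.18 at D3 (adjusted p = 0.128). The mitotic cyclins Ccnb1 and Ccnb2 rose by 0.70 ± 0.13 and 0.76 ± 0.14 at D1 and stood at 0.16 and 0.26 at D3 (adjusted p = 0.456 and 0.255). From D1 to D3 limma called 0 of 6 (3 at an unadjusted p under 0.05). Adjusted p there was 0.113, 0.146 and 0.292 for Ccna2, Ccnb1 and Ccnb2. Cdk2 was not called at any dose (0.12 at D1). The list's median was 0.57, 0.45 and 0.21 at D1, D2 and D3, and median centring left 0 of it called at each dose.

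Among pocket proteins and E2F factors, which carry the signal from CDKs to S phase genes, 1 of 12 was called at each dose. This count was not stable: over 30 alternatives it ranged from 0 to 2 at each dose, with 2 at D1 without D0 mouse 2 or D1 mouse 21 or 22, 2 at D2 without D2 mouse 29, 2 at D3 without D0 mouse 1 or D3 mouse 31, 32 or 34, and 0 at D3 without D0 mouse 2 or D3 mouse 35. E2f7, a repressor of the family, rose by 0.81 ± 0.11 at D1 and 0.72 ± 0.10 at D2 (limma adjusted p = 0.000736 and 0.000856). Both calls of E2f7 were lost with median centring, and processed signals gave 1.39 and 1.31. E2f3, an activator, was called at D3 at 0.58 ± 0.08, just past 1.5-fold, and lost the call under 7 of 30 alternatives.

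Of 14 genes for the turnover of the inhibitors, 2, 2 and 1 were called at D1, D2 and D3, all higher. Dtl, the receptor by which a ubiquitin ligase recognises p21 on replicating DNA, rose by 0.76 ± 0.14, 0.76 ± 0.13 and 0.74 ± 0.14 (limma adjusted p = 0.00387, 0.00335 and 0.00174). With processed signals the values of Dtl were 2.12, 2.18 and 2.00, and with median centring its calls were lost at all 3 doses. The other called gene, named after its values were seen, was Cdc20, an activator of the mitotic ubiquitin ligase, at 1.05 and 0.75 at D1 and D2. The D2 count moved under 9 of 30 alternatives (0 to 2) and was 1, with Dtl still called, on leaving out mouse 1, 2, 3 or 5 of D0, mouse 23 or 28 of D2, or with mouse 23 counted in D1. Of 28 transcriptional regulators of the inhibitor genes, limma called 0 at each dose (4, 9 and 10 at an unadjusted p under 0.05). Trp53, the gene of p53, gave -0.24, -0.29 and -0.36 (adjusted p = 0.321, 0.271 and 0.0815), and Ahr, the aryl hydrocarbon receptor, gave -0.06, -0.10 and -0.27 (adjusted p = 0.836, 0.728 and 0.128).

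Of 33 p53 target genes other than Cdkn1a, 7, 10 and 14 were called at D1, D2 and D3, all higher. Their median change was 0.36, 0.30 and 0.54, and the mean over the list was -0.31 to -0.17 per D0 mouse and 0.47 to 0.52 per D3 mouse. Gdf15, a stress cytokine, rose by 2.83 ± 0.18, 2.61 ± 0.17 and 3.69 ± 0.18, reaching 12.9-fold (limma adjusted p = 1.82e-10 at D3). Ccng1, encoding cyclin G1, rose by 1.13 ± 0.10, 1.17 ± 0.09 and 2.19 ± 0.10. Phlda3, a repressor of Akt signalling, rose by 1.32 ± 0.09, 1.45 ± 0.09 and 2.19 ± 0.09. As on Cdkn1a, the D1 and D2 changes of these 3 genes lay close together and D3 lay above them. They were picked as the largest increases at D3, and not every called gene of the list shared the pattern. Ddit4l (0.69, 0.69 and 1.40) did and Bax (0.54, 1.03 and 1.13) did not, both named after their values were seen. Median centring left 3, 4 and 8 of the list called.

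Of 43 proliferation genes, 19, 9 and 4 were called at D1, D2 and D3, all higher, with a median change of 0.57, 0.41 and 0.22. From D1 to D3 limma called 1 of 43, lower (24 at an unadjusted p under 0.05), beside 0.145% of all probes. From D2 to D3 it called 0 of 43 (12 at an unadjusted p under 0.05). At D1 the 3 with the largest increases were Spc25, a kinetochore subunit, at 1.84 ± 0.17, Birc5, which encodes survivin, at 1.42 ± 0.19, and Mki67, the gene of the Ki-67 antigen, at 1.31 ± 0.19. At D3 they stood at 1.12 ± 0.17, 0.58 ± 0.19 and 0.34 ± 0.19, and of these only Spc25 was called (limma adjusted p = 0.000357). From D1 to D3 none of the 3 was called (limma adjusted p = 0.155, 0.126 and 0.055 for Spc25, Birc5 and Mki67). The other genes called at D3 were Uhrf1 at 0.79, Rrm2 at 0.67 and Mcm2 at 0.61, the last named after its values were seen. Birc5 was called at D3 under 6 of 30 alternatives, among them slide as a block. Rrm2 lost its call under 14 of 30 alternatives and stood at 0.39 without D3 mouse 35. Without D0 mouse 3 or D3 mouse 35 the count at D3 was 2. Median centring left 1, 0 and 0 of the list called, and 12 of all probes at D1 in place of 328.

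Cellular senescence is a lasting arrest in which Cdkn1a and Cdkn2a are often high. Of 25 genes linked to it, 6 were called at D3 (5 higher and 1 lower), and 1 with median centring. The list's median at D3 was 0.04. The cytokine gene Il1b was called at D3 at 1.07 ± 0.25, with D3 mice from 2.22 to 4.00 and D0 mice from 1.65 to 2.00. Without D3 mouse 34 the value of Il1b was 0.68 and it was still called, and with median centring the call was lost. Igfbp2 (0.94 ± 0.25) and Igfbp6 (-0.65 ± 0.14), which bind insulin-like growth factors, were called in opposite directions at D3, and both calls were lost under some alternatives (3 and 4 of 30). Median centring gave -0.37 for Igfbp6.

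The genes whose pattern over the 18 mice was most like that of Cdkn1a were Phlda3 (Pearson r = 0.995), Gdf15 (0.982), Ccng1 (0.971), Mmrn2 (0.968), Thyn1 (0.965) and Aen (0.964), of 14727 genes ranked. Within dose groups the same r was 0.90, 0.80, 0.39, 0.76, 0.36 and 0.65. Of these, Phlda3, Gdf15, Ccng1 and Aen, a nuclease, are in the p53 target list. Mmrn2, an endothelial matrix protein, rose by 1.12 ± 0.18, 1.21 ± 0.17 and 2.16 ± 0.18. Thyn1 rose by 0.81 ± 0.10, 0.90 ± 0.10 and 1.53 ± 0.10. With median centring Mmrn2, Thyn1 and Aen lost their calls at D1 and D2 and kept those at D3. Mice of a group share dose and array column, and each slide holds mice of all groups, so these r values are descriptions.

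For Cdkn3 the most alike were Aurka (Pearson r = 0.953), Racgap1 (0.937), Spag5 (0.919) and Aspm (0.918), and within dose groups r was 0.89, 0.81, 0.83 and 0.83. Aurka is a mitotic kinase, Racgap1 acts in cytokinesis, and Spag5 and Aspm encode spindle proteins. All of them were called at D1, at 0.78 ± 0.12, 0.71 ± 0.12, 0.80 ± 0.13 and 0.96 ± 0.15, and none at D3, where they stood at 0.20, 0.23, 0.47 and 0.25 (limma adjusted p = 0.294, 0.242, 0.0199 and 0.321). Median centring removed all of these D1 calls, and processed signals gave 1.96 for Spag5 and 1.82 for Aspm at D1. Spag5 was called at D3 with processed signals (1.25) or the lung channel alone. From D1 to D3 neither Aurka nor Racgap1 was called (limma adjusted p = 0.0695 and 0.187).

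**Figure D4:**
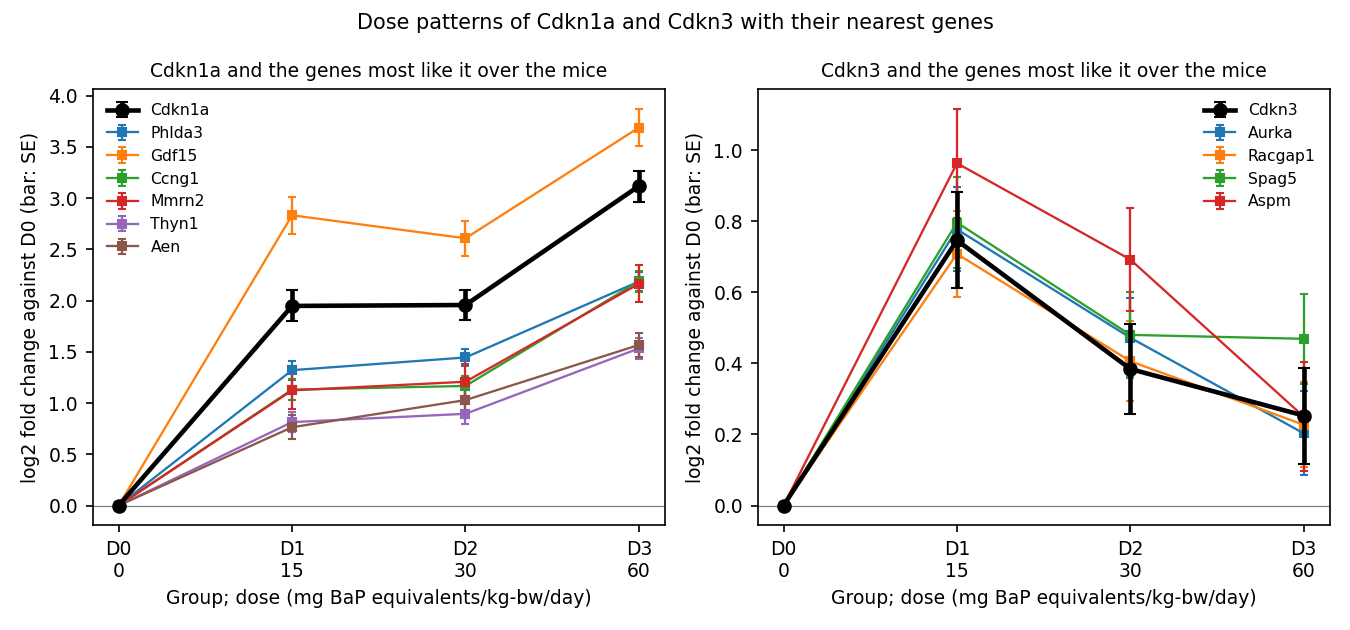
Log2 fold change against D0 (bar: SE from limma) for Cdkn1a with the 6 genes most like it and for Cdkn3 with the 4 most like it; D0 is set to 0. The left lines are highest at D3 (Cdkn1a 3.12, Gdf15 3.69), and the right lines are highest at D1 (Cdkn3 0.75, Aspm 0.96).

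Lung holds many cell types, whose markers were read in the same mice. Alveolar type 2 cell genes, which include the surfactant genes, had a mean per mouse (log2 over the reference) of 5.48 to 6.06 in D0, 5.33 to 5.87 in D1, 5.51 to 6.01 in D2 and 5.23 to 5.69 in D3. All 7 had a change below 0 at each dose, with medians of -0.34, -0.10 and -0.32, and limma called 0 of 7 at each dose (1, 1 and 2 at an unadjusted p under 0.05). All 4 neutrophil markers had a change above 0 at each dose, with medians of 0.52, 0.46 and 1.11, and limma called 0, 0 and 4 of them (2 and 1 at an unadjusted p under 0.05 at D1 and D2). Their mean per mouse ranged from 2.2 to 3.04 in D0, 2.98 to 3.24 in D1, 2.65 to 3.59 in D2 and 3.29 to 4.86 in D3. Median centring or processed signals left 1 of them called at D3, and without D3 mouse 34 the counts at D1 and D2 were 2 and 1 (1 at D1 without D3 mouse 35). The D1 count was 1 with slide as a block and 2 in a fit of D0 and D1 alone. Of NK cell markers 1, 1 and 2 of 6 were called lower at D1, D2 and D3. These NK counts depended on single mice: D1 gave 0 without D0 mouse 1 or 3 or D1 mouse 22 or 24, D2 gave 2 on leaving out mouse 2, 4 or 5 of D0, mouse 23 or 29 of D2, and D3 gave 4 without D0 mouse 2 or D3 mouse 32 or 34 and 1 without D0 mouse 3. The mean of the 6 ranged from 1.16 to 1.86 in D0 and from 0.39 to 0.72 in D3. Alveolar macrophage markers had 0, 1 and 1 of 6 called lower (1 at D1 at an unadjusted p under 0.05), with a mean of 3.38 to 3.59 in D0 and 2.88 to 3.21 in D3. At each dose 1 of these 6 had a change above 0. The macrophage count at D2 moved under 12 of 30 alternatives, to 0 without any single D0 mouse or D2 mouse 26 and to 2 without D1 mouse 21, D2 mouse 28 or D3 mouse 31 or 32. At D3 it moved under 8 (0 to 3), to 2 without D2 mouse 23 or 30 or D3 mouse 32, and at D1 it was 1 without D2 mouse 23. Endothelial markers had 1, 0 and 1 of 5 called higher (0 at D2 at an unadjusted p under 0.05), with a mean of 5.18 to 5.68 in D0 and 5.42 to 5.79 in D3. The endothelial count at D1 was 0 without D1 mouse 25, and median centring or processed signals left 0 at D1 and D3. The 6 other marker lists (type 1 cells, club cells, fibroblasts, T cells, B cells and heart muscle) had 0 called in limma at each dose, with at most 4 genes of a list at an unadjusted p under 0.05 (T cells at D3, with 1 called without D3 mouse 31 or 35). The part of these cells in the results for Cdkn1a and Cdkn3 was not tested.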

How the data were processed

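Lung RNA of 18 mice was hybridised to 19 Agilent arrays (Cy5) against Universal Mouse Reference RNA (Cy3), and mouse 35 of D3, with a pair of arrays, was averaged. Scanner output was deposited as the intensity of each spot, not normalized (Feature Extraction 11.0.1.1 per the file headers; the methods name another version). The deposited series table holds log2 ratios normalized by the authors (r = 0.9954 to 0.9978 with those computed here). Following the authors' methods, median intensity values without background subtraction were loess-normalized within arrays (span 0.3). Control spots and outlier-marked spots were left out, and spots were averaged per probe. The 80 probes with no spot left in some mice were dropped. Probes well above background in the lung channel in at least 4 mice of 1 group were tested (30999). limma 3.58.1 in R 4.3.3 was fitted over all 4 groups across all probes, with Benjamini-Hochberg adjustment; the code was tested on simulated data. The study used MAANOVA, which was not run here.

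The array labelled D2 mouse 23 carries a number among those of D1, and the methods' group sizes place 1 more mouse in D1; it was kept in D2 as labelled, with D1 as an alternative. Other alternatives were median centring, the software's processed signals, normexp (offset 50), the deposited table, the lung channel alone, other filters, slide as a block, single arrays of mouse 35, fits of 2 groups and leaving out each mouse. List counts, named genes and within-slide values under these alternatives were chosen after seeing the data. Precision is limited by the number of arrays. No dyes were swapped, so ratios are open to dye bias. The 3 slides each held all 4 groups.

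Members and lists were chosen with earlier results of these data known. Named were all member probes, per list up to 3 increases and 2 decreases at D3 (and at D1 for cyclins, pocket proteins and proliferation genes) among called genes, called genes of both cyclin lists, and the 6 and 4 genes most correlated with Cdkn1a and Cdkn3. Symbols came from RefSeq accessions (GRCm38.p6); Dmp1, which names another gene than the intended regulator, was left out of its list. Promoter windows are RefSeq sequences, of which only the bases before the start are shown. The values of 1 gene that this rule names in the senescence list are not reported here.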

Additional observations from a re-analysis of the deposited data

Results flagged for a closer look

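In 4 of 44 group-and-probe combinations of the members, 1 mouse lay far from the others of its group, by the size of its gap relative to the group's range; chance gives about 1 in 20. Cdkn2a on its dimmer probe was at -1.93 in D1 mouse 22, against -2.46 to -2.38 in the other D1 mice. Cdkn2b on its dimmer probe was at 0.054 in D0 mouse 4, against 0.40 to 0.53. Cdkn2d was at -0.76 in D3 mouse 34, against -1.28 to -1.20. Cdkn3 was at -3.34 in D0 mouse 5, against -2.94 to -2.89, and this mouse widens the D0 spread of Cdkn3.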

How the results depend on the processing

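Over 30 alternatives, the calls of both Cdkn1a probes against D0 did not change, and the member counts at D1, D2, D3 and for the trend stayed within 1.5 times those reported. Between doses, calls of D3 against D2 were 0 with median centring, 1 with processed signals and 1 with the lung channel alone, in place of 2. Calls of D3 against D1 were 0, 1 and 1 under the same settings and 1 to 2 on leaving out single mice (1, the NM_007669 probe of Cdkn1a, without D1 mouse 21 or 22 or D3 mouse 31, 34 or 35). Calls of D2 against D1 were 0 to 1 on leaving out single mice (1, a Cdkn2b probe, without D2 mouse 28). The cause was not tested.

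The difference between the Cdkn1a probes became 1.44, 1.34 and 1.27 at D1, D2 and D3 with processed signals, which reverses the sign at D3. On leaving out single mice it ranged from 0.21 to 0.36, 0.11 to 0.18 and -0.095 to 0.008, and without D0 mouse 3 those at D1 and D2 passed the test. Uncalled members near 0 turned sign with median centring, which moved the median of all probes to 0.17, 0.12 and 0.06: Cdkn1b to 0.209, 0.161 and 0.011, Cdkn2a (brighter probe) to 0.19 at D1 and 0.13 at D3, Cdkn2a (dimmer probe) to 0.056 at D1, Cdkn1c to 0.12 at D2 and Cdkn2b (dimmer probe) to 0.091 at D2. Cdkn1c at D1 became -0.077 with processed signals and -0.07 with the lung channel alone. On leaving out single mice the ranges that crossed 0 were -0.058 to 0.124 and -0.195 to 0.009 for Cdkn1c at D1 and D2, -0.201 to 0.021 for Cdkn2b (dimmer probe) at D2, -0.175 to 0.015 for Cdkn2a (brighter probe) at D3 and -0.051 to 0.141 for Cdkn2d at D3.

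The share of higher calls among all probes called was 56.1%, 69.6% and 49.6% at D1, D2 and D3, and 100%, 88.9% and 82.7% with median centring (12, 18 and 98 probes called); with processed signals it was 42.9%, 74.6% and 38.7% (522, 236 and 1261 called). Of 63 lost calls of named genes over all alternatives, 39 were under median centring, and no named gene of the lists changed sign. The groups share no replicate numbers, so no fit paired mice by number; with slide as a block no call of a member probe changed.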
